A study of Rattus norvegicus with 119 samples.

Results

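miR-210 is the microRNA (miRNA) best known for its response to low oxygen, and its level is described here in the lining of the rat bladder during treatment with 2 diabetes drugs. It was chosen by name, as rno-miR-210, and is 1 of the 301 rat miRNAs in the deposited table. The arrays measured miRNAs in urothelium, the epithelium that lines the bladder, of male and female Sprague-Dawley rats killed 1 day after the last of 3, 28 or 90 daily oral doses. The groups received pioglitazone hydrochloride at 16 mg/kg/day, pioglitazone hydrochloride at 63 mg/kg/day, rosiglitazone maleate at 10 mg/kg/day, or vehicle, which was 0.5% methylcellulose. Pioglitazone and rosiglitazone belong to the thiazolidinediones, insulin sensitisers that activate the nuclear receptor PPAR gamma. The low pioglitazone dose is 16 mg/kg/day in the labels, whereas the series' design text gives 13. The ages of the rats were not given. The urothelium was scraped from the bladder wall, so that other cells of the wall can be in the RNA. The labels state that of 10 dosed rats in a group of 1 sex 5 were profiled, so that each array is a different animal.

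In mammalian cells short of oxygen, the transcription factor HIF-1 alpha binds the miR-210 gene and raises its transcription. The mature miRNA then represses messenger RNAs such as those of the iron-sulphur cluster scaffold proteins ISCU1 and ISCU2 and, in human endothelial cells, of the ephrin EFNA3. It is therefore widely read as a sign of HIF activity, and in human bladder cancer as in other tumours it has been studied as a marker of poor oxygen supply. These sentences are background and were not measured here.

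The sequences below show what the array name stands for and how miR-210 can be told from its neighbours. They are from RefSeq with coordinates on GRCr8. The name on the array gives no arm, and in the usual naming of rat miRNAs it stands for the 3p arm, the main product of the hairpin. The seed, bases 2 to 8 counted from the 5′ end, is in capitals in both mature arms. In the hairpin the capitals mark the 3p arm, bases 66 to 87 of 110.
rno-miR-210-3p: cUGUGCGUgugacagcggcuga
rno-miR-210-5p: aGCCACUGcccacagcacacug
rno-miR-210 hairpin: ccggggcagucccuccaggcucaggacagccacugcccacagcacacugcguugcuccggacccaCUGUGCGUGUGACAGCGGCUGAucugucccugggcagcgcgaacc
rno-miR-3574: ucagccgcugucacacgcacag

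The 3p arm lies at chr1:205755946-205755967 on the minus strand, and the hairpin at chr1:205755923-205756032. In the same annotation the miR-210 gene lies within the long noncoding RNA gene LOC102553043 and within Mir3574 on the opposite strand, with Rassf7 on one side and Phrf1 on the other. Whether it is exonic or intronic there was not looked up. rno-miR-3574 occupies the same 22 bases on the plus strand, and its sequence, printed above with no capitals, is the exact reverse complement of the 3p arm. rno-miR-3574 was not analysed here. A messenger RNA that pairs with the 3p seed holds the letters ACGCACA. Of the 693 rat mature miRNAs in the RefSeq table, 0 others carry the 3p seed, so that miR-210 has no seed family among them. Its 3p arm holds 14 G or C bases of 22, which is 63.6%, against a median of 47.6% over these mature miRNAs.

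The values are log2 intensities as deposited. The labels mark 3 of the 119 arrays as failing quality control, and the other 116 were used, in 24 groups of 3 to 5 arrays. The medians of the 301 miRNAs on an array ran from 3.70 to 5.66, and values in the table from 2.69 to 16.87. Many values lay near the lower end, where differences are compressed, and 21.9% to 63.1% of the miRNAs of an array were below 4. Epithelial miRNAs were high on the arrays, with a mean level over 10 of them of 7.06 to 11.76 on the 116 arrays and a median of 10.96. Mean levels of muscle miRNAs ranged from 3.51 to 10.88 over 6 members, and those of red blood cell miRNAs from 3.54 to 10.80 over 2 members. In scraped tissue, fewer cells of a type and less RNA per cell cannot be told apart.

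miR-210 was well within the measured range in most rats. Its level ran from 3.27 to 8.47 over the 116 arrays, with a median of 7.19 and quartiles of 6.71 and 7.64. It was 6 or more on 93 arrays, which is 80.2%, between 5 and 6 on 7, and below 5 on 16. The levels were not spread evenly. Most arrays formed a narrow band between about 6.5 and 8.5, and a smaller number lay far below it, 9 of them under 4, where the level is close to the lower end of the table.

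**Figure D1:**
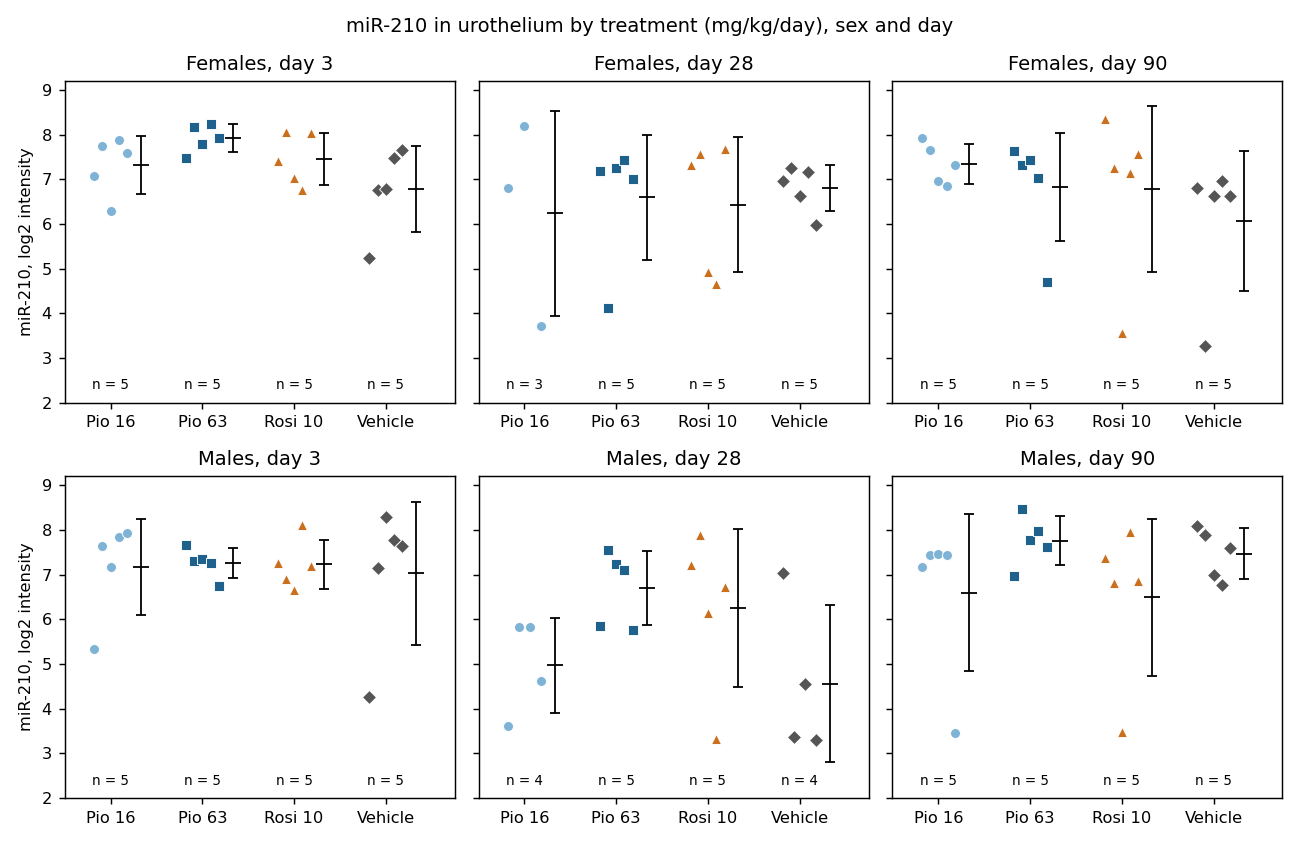
miR-210 level (log2 intensity, vertical axis) on each of the 116 arrays, by treatment in mg/kg/day within each sex and day. Each point is 1 rat, and the bars to its right give the group mean ± SD. In most groups the points lie between 6 and 8.5, with 1 or 2 rats far lower in some. Of the 4 vehicle males at day 28, however, 3 lie below 5, and the 4 males given pioglitazone 16 at that day lie between 3.60 and 5.82.

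At day 3 in females, miR-210 was 7.08, 7.75, 6.29, 7.89 and 7.59 after pioglitazone 16. It was 7.47, 8.18, 7.79, 8.25 and 7.93 after pioglitazone 63 and 7.41, 8.05, 7.03, 6.77 and 8.03 after rosiglitazone 10. The vehicle females had 5.23, 6.77, 6.79, 7.48 and 7.65. The 4 groups overlapped, although 4 of the 5 females given pioglitazone 63 lay above every vehicle female. The means were 7.32 ± 0.65, 7.92 ± 0.31 and 7.46 ± 0.58 in the pioglitazone 16, pioglitazone 63 and rosiglitazone groups, against 6.78 ± 0.95 with vehicle (SD, n = 5 each).

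At day 28 in females, miR-210 was 6.81, 8.18 and 3.72 on the 3 usable arrays of pioglitazone 16. It was 7.18, 4.12, 7.25, 7.44 and 7.01 after pioglitazone 63 and 7.33, 7.57, 4.94, 4.65 and 7.68 after rosiglitazone 10. The vehicle females had 6.96, 7.25, 6.63, 7.17 and 5.98. Each treated group thus held both rats in the vehicle range or above it and 1 or 2 rats below it, and the groups overlapped or enclosed one another. The means were 6.24 ± 2.29 (SD, n = 3), 6.60 ± 1.40 and 6.43 ± 1.50 in the 3 treated groups in the same order, against 6.80 ± 0.52 with vehicle (SD, n = 5 each).

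At day 90 in females, miR-210 was 7.93, 7.66, 6.96, 6.85 and 7.32 after pioglitazone 16. It was 7.64, 7.32, 7.44, 7.02 and 4.71 after pioglitazone 63 and 8.34, 7.25, 3.56, 7.14 and 7.58 after rosiglitazone 10. The vehicle females had 6.82, 3.27, 6.64, 6.96 and 6.63. Apart from 1 low rat in each of 3 groups, the treated females lay at 6.85 or more and the vehicle females at 6.96 or less, so the groups overlapped. The means were 7.34 ± 0.46, 6.83 ± 1.20 and 6.78 ± 1.86 in the 3 treated groups, against 6.06 ± 1.57 with vehicle (SD, n = 5 each).

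At day 3 in males, miR-210 was 5.33, 7.64, 7.17, 7.84 and 7.92 after pioglitazone 16. It was 7.67, 7.30, 7.35, 7.26 and 6.73 after pioglitazone 63 and 7.25, 6.91, 6.66, 8.11 and 7.19 after rosiglitazone 10. The vehicle males had 4.26, 7.15, 8.28, 7.78 and 7.65. Each treated group lay inside the vehicle range, which 1 low and 1 high rat made wide. The means were 7.18 ± 1.08, 7.26 ± 0.34 and 7.23 ± 0.55 in the 3 treated groups, against 7.02 ± 1.60 with vehicle (SD, n = 5 each).

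At day 28 in males, the 4 rats given pioglitazone 16 had 3.60, 5.82, 5.82 and 4.61. The 5 rats given pioglitazone 63 had 5.85, 7.54, 7.23, 7.10 and 5.75, and the 5 given rosiglitazone 10 had 7.20, 7.89, 6.13, 3.32 and 6.72. The 4 vehicle males had 7.04, 3.36, 4.55 and 3.29. Here the vehicle group itself was low, with 1 rat in the usual band and 3 well below it. All 5 males given pioglitazone 63 exceeded the vehicle mean and 3 of them exceeded every vehicle male, so the groups overlapped only through the vehicle male at 7.04. The means were 4.96 ± 1.07 (SD, n = 4), 6.69 ± 0.83 (SD, n = 5) and 6.25 ± 1.76 (SD, n = 5) in the 3 treated groups, against 4.56 ± 1.75 with vehicle (SD, n = 4).

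At day 90 in males, miR-210 was 7.18, 7.43, 7.45, 7.44 and 3.45 after pioglitazone 16. It was 6.97, 8.47, 7.76, 7.97 and 7.62 after pioglitazone 63 and 7.36, 6.80, 3.47, 7.96 and 6.86 after rosiglitazone 10. The vehicle males had 8.09, 7.89, 6.98, 6.77 and 7.59. The vehicle males of this day, other rats than those of day 28, were thus in the usual band, and the groups overlapped. The means were 6.59 ± 1.76, 7.76 ± 0.55 and 6.49 ± 1.75 in the 3 treated groups, against 7.46 ± 0.57 with vehicle (SD, n = 5 each).

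Ordered by mean level, females given pioglitazone 63 for 3 days were highest at 7.92 and males given pioglitazone 63 for 90 days came next at 7.76. Of the 24 group means, 22 were above 6. The lowest were those of males at day 28 given pioglitazone 16, at 4.96, and vehicle, at 4.56. The largest gap between neighbours in this order was 1.10, between vehicle females at day 90 and males given pioglitazone 16 for 28 days. In 0 of the 23 pairs of neighbours did the gap exceed the larger of the pair's SDs.

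The design asks whether each drug and dose altered urothelial miRNAs in each sex and at each time, and miR-210 rose in 1 of the 18 comparisons of a treated group with vehicle and fell in 0. Males given pioglitazone 63 for 28 days averaged 6.69, against 4.56 in vehicle males, a log2 difference of 2.14 (SE 0.81, 95% interval 0.52 to 3.75), or 4.39-fold on the intensity scale. The adjusted p was 0.0312 by limma with Benjamini-Hochberg adjustment over the 301 miRNAs. In that comparison 65 miRNAs, or 21.6% of those tested, were called higher and 47, or 15.6%, lower (37.2% in all), and miR-210 ranked 96 of 301 by p-value. The split was 48 higher and 51 lower after centring, 62 and 64 after quantile normalization, and 49 and 52 with the array median as covariate. A call for a higher level was thus common among all miRNAs there. The 2-sided exact permutation test of miR-210 alone gave p = 0.0317, and 0.190 after adjustment over the 18 comparisons. The smallest p this test can give with 5 against 4 rats is 0.00794 before adjustment.

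The call did not hold in every setting. It was lost with an adjusted p of 0.0559 to 0.147 by limma when vehicle male 3, 4 or 5 was left out, and of 0.0539 to 0.0750 when male 2, 3 or 4 given pioglitazone 63 was left out. Against the vehicle males of days 3 and 90 in place of those of day 28, an alternative chosen after seeing the data, the same males differed by -0.55 with an adjusted limma p of 0.928.

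Values for the other treated males at day 28 were also above 0 as deposited, although that of pioglitazone 16 was -0.20 after centring each array on its median. Rosiglitazone 10 differed from vehicle by 1.69 (SE 0.81, 95% interval 0.08 to 3.31) with an adjusted limma p of 0.128, where 22 miRNAs, or 7.31%, were called higher and 52, or 17.3%, lower (24.6% in all), and after quantile normalization 43 higher and 57 lower. Pioglitazone 16 differed from vehicle by 0.41 (SE 0.86, 95% interval -1.29 to 2.10) with an adjusted limma p of 0.953, where 13 miRNAs, or 4.32%, were called higher and 25, or 8.31%, lower (12.6% in all), and after quantile normalization 22 higher and 21 lower. The 3 comparisons share the same 4 vehicle males, so they are not independent. The doses of pioglitazone and rosiglitazone differ, and no test was made between the drugs.

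**Figure D2:**
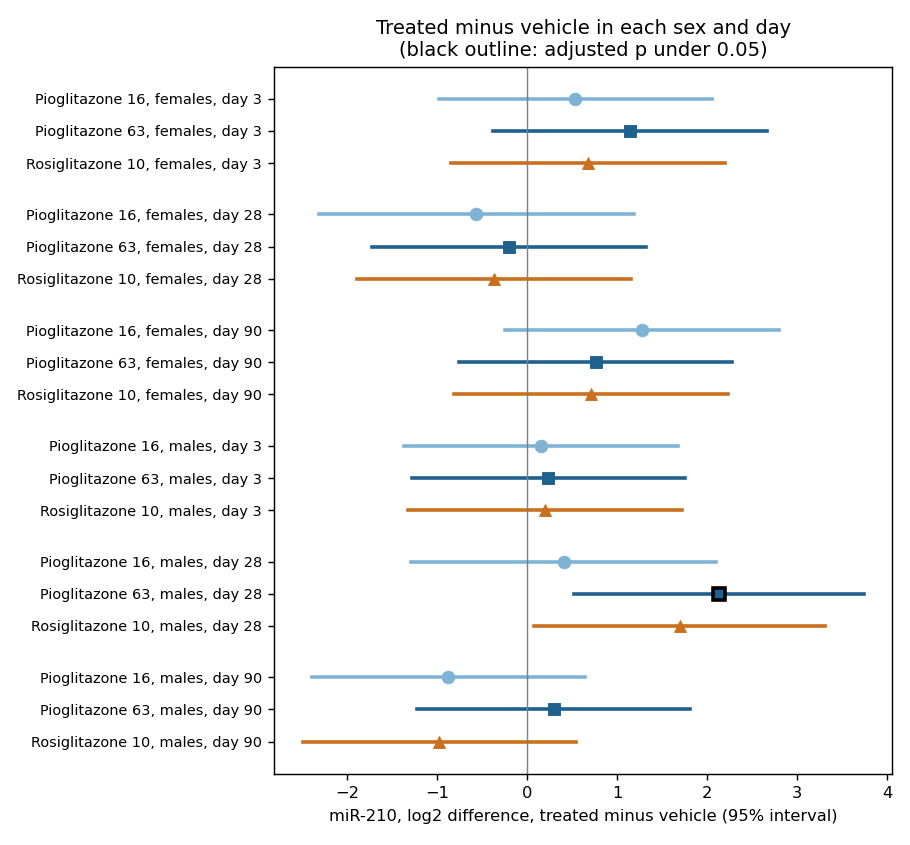
Log2 difference in miR-210, treated minus vehicle (horizontal axis), for each treatment in mg/kg/day, sex and day, with 95% intervals from the limma fit. Only pioglitazone 63 in males at day 28 has an adjusted p under 0.05, and the interval of rosiglitazone 10 in the same males also lies above 0.

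In the other 15 comparisons miR-210 passed in none, by limma at the adjusted threshold of 0.05, and 0 had an unadjusted limma p under 0.05. The differences ran from -0.97 for males given rosiglitazone 10 for 90 days to 1.28 for females given pioglitazone 16 for 90 days, 10 of them were above 0, and the lowest adjusted p was 0.873. Few miRNAs of any kind were called in these comparisons, from 0 to 3.65% of the 301, the highest share being that for rosiglitazone 10 in males at day 3, and 0.332% in each of 2 others. The 95% intervals reached 1.52 to 1.75 to either side of the difference. They are not adjusted over the 301 miRNAs, so a change of that size or larger could have been missed in a single group. The exact permutation test gave an unadjusted p of 0.0238 for females given pioglitazone 63 for 3 days, who differed from vehicle by 1.14 (SE 0.77, limma adjusted p = 0.985). It gave 0.0238 also for females given pioglitazone 16 for 90 days, with 5 of 5 above the vehicle mean, and both became 0.190 after adjustment over the 18 comparisons.

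Averaged over the 6 combinations of sex and day, miR-210 differed from vehicle by 0.16 (SE 0.33) for pioglitazone 16, 0.73 (SE 0.32, 95% interval 0.10 to 1.35) for pioglitazone 63 and 0.32 for rosiglitazone 10. None passed after adjustment, with limma adjusted p-values of 0.954, 0.148 and 0.665 in that order, beside 0, 10.6% and 11.3% of all miRNAs called, and 1 of the 3 had an unadjusted limma p under 0.05. The value for pioglitazone 63 was at or above that of 98.0% of the 301 miRNAs in the same contrast. Without the male day-28 groups it was 0.45 with an adjusted limma p of 0.961.

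The 2 doses of pioglitazone were set against each other directly. Pioglitazone 63 minus pioglitazone 16 was 0.60 in females at day 3, 0.36 at day 28 and -0.52 at day 90. In males it was 0.08, 1.73 (SE 0.81) and 1.17 at days 3, 28 and 90. None of the 6 passed by limma, and the lowest adjusted p, 0.217, was that of males at day 28, where the unadjusted limma p was 0.036 and 8.97% of all miRNAs were called, against 0 to 0.332% in the other 5.

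The difference in treatment effect between the sexes was also tested directly. In none of the 9 combinations of treatment and day did it pass by limma, and it ran from -2.15 to 2.34, with 2 at an unadjusted p under 0.05. For pioglitazone 63 at day 28 the male effect minus the female effect was 2.34 (SE 1.12) with an adjusted limma p of 0.105, and for pioglitazone 16 at day 90 it was -2.15 with an adjusted limma p of 0.649. The share of all miRNAs called was 26.6% for pioglitazone 63 at day 28, 22.6% for rosiglitazone 10 and 8.64% for pioglitazone 16 at that day, 4.98% for rosiglitazone 10 at day 3 and 0 elsewhere. The effect at day 28 minus the mean effect at days 3 and 90 was likewise called in 0 of 6 cases by limma, 1 of them with an unadjusted p under 0.05, with 1.87 for pioglitazone 63 in males and 2.08 for rosiglitazone 10 in males at the same adjusted limma p of 0.137. The shares of all miRNAs called in these 2 were 30.9% and 18.6%, and 0 to 1.99% in the other 4, with 1.99% for pioglitazone 16 in males and 0.332% for pioglitazone 16 in females. The treatment effect on miR-210 was therefore not shown to differ between sexes or times.

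The level in vehicle rats was called different between times and between sexes at day 28 on the deposited scale, and both calls were lost with the array median as covariate. In vehicle males miR-210 averaged 4.56 at day 28, against 7.24 in the other rats of days 3 and 90, and so was lower by 2.69 on the log2 scale (SE 0.72, limma adjusted p = 0.00116). In that comparison 108 miRNAs, or 35.9%, were called lower and 48 higher (51.8% in all), but 46 lower and 95 higher after each array was centred on its median. Centred, miR-210 itself was lower by a log2 difference of -1.57 (limma adjusted p = 0.011), and with the covariate the value was -1.06 (limma adjusted p = 0.113). Males given pioglitazone 16 averaged 4.96 at day 28, against 6.89 over days 3 and 90, and there too it was called lower, at -1.92 (SE 0.72, limma adjusted p = 0.038), with 43 miRNAs, or 14.3%, called lower and 31 higher (24.6% in all), and 19 lower and 27 higher after centring. That call was lost by limma with brighter miRNAs only (adjusted p = 0.0652) and with a fit to the groups of the contrast alone (0.0812). It was also lost without day-28 male 1 (0.220) or 4 (0.111), and without male 2, 4 or 5 of day 3 or male 1, 2, 3 or 4 of day 90 (0.0523 to 0.0598). The corresponding values were -0.82 for males given pioglitazone 63 and -0.61 for males given rosiglitazone 10. In females they were -1.09 for pioglitazone 16, -0.78 for pioglitazone 63, -0.69 for rosiglitazone 10 and 0.38 for vehicle. None of these was called by limma. Of these 6 remaining groups of treatment and sex, rosiglitazone 10 in females had the most miRNAs called, 6.64%. Vehicle males minus vehicle females was 0.24 at day 3, -2.24 at day 28 (SE 0.81, limma adjusted p = 0.0162) and 1.40 at day 90 (limma adjusted p = 0.549). At day 28, 97 miRNAs, or 32.2%, were called lower and 50 higher (48.8% in all), and 55 lower and 73 higher after centring. The sex call for miR-210 was lost after centring (-1.31, limma adjusted p = 0.0674), with the covariate (-0.885, 0.245), and without vehicle male 3 (0.0868) or 5 (0.0897). Day 90 minus day 3 was called in 0 of 8 treatment and sex combinations by limma, and in 0 at an unadjusted p under 0.05, with values from -1.10 to 0.50. Of all miRNAs, 0 to 8.31% were called there, with 8.31% for vehicle males, 3.32%, 2.99% and 0.997% for females given pioglitazone 63, females given rosiglitazone 10 and males given pioglitazone 63.

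Markers of other cells were also lower in the vehicle males of day 28, against days 3 and 90. Both measured red blood cell miRNAs (median difference -3.40) and both endothelial ones (-2.99) were called lower, as were 4 of 5 fibroblast (-2.83), 3 of 4 leukocyte (-2.43) and 3 of 6 muscle miRNAs (-3.26), with 0 called higher. These marker counts are on the deposited scale, where 108 of all miRNAs (35.9%) were called lower and 48 higher. After centring, 46 of all miRNAs were called lower and 95 higher. Of the 10 epithelial miRNAs 1 was called lower and 0 higher, with a median difference of 0.24, beside -0.66 over all miRNAs. The mean red blood cell level was 3.54 to 6.22 at day 28, against 8.23 to 10.80 at day 3 and 5.10 to 8.53 at day 90. The fibroblast means were 5.03 to 6.35, against 8.10 to 9.96 and 6.62 to 8.74, without overlap. The endothelial means were 3.84 to 6.59, against 6.56 to 7.93 and 7.26 to 8.84, and the leukocyte means did not overlap, with a highest value of 5.40 at day 28 and a lowest of 6.42 at the other days. The muscle means overlapped, at 3.51 to 8.16, against 6.77 to 10.38 and 6.89 to 8.36, and the epithelial means were 9.71 to 11.39, against 8.05 to 11.68 and 10.83 to 11.16. The part of these cells in the lower miR-210 level was not tested.

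miR-210 was set against the array median over arrays, in 9 relations. Over all 116 arrays Pearson r was 0.677 (permutation p = 1e-05, adjusted over the 9 relations 4.5e-05). Spearman rho was 0.329 (permutation p = 0.00037, adjusted 0.00333), and r was 0.653 without the 2 arrays farthest from the middle. These pooled values mix treatments, sexes and days. The limit of 4.5, chosen after seeing the data, divides the arrays into bright and dim ones. Their medians ran through it without a clear gap. Over the 93 arrays with a median of at least 4.5, no relation was detectable, with a Pearson r of 0.068 (permutation p = 0.513) and a Spearman rho of -0.060 (permutation p = 0.568), and r was 0.094 without the 2 arrays farthest from the middle. Over the 23 arrays below 4.5, r was 0.444 (permutation p = 0.0335, adjusted 0.0502) and rho 0.454 (permutation p = 0.031, adjusted 0.0698), with r = 0.343 without the 2 farthest arrays. Within each sex and day, r was 0.420, 0.942 and 0.759 in females at days 3, 28 and 90 and 0.404, 0.589 and 0.541 in males. The adjusted permutation p of r was 0.081, 4.5e-05 and 0.0102 in females and 0.081, 0.0261 and 0.0468 in males, in that order. At day 28 rho was 0.705 in females (adjusted permutation p = 0.00603) and 0.628 in males (0.0180), and in the other 4 it was -0.063 to 0.188. However, these groups hold bright and dim arrays together. Without the 2 farthest arrays r was 0.901 in females and 0.512 in males at day 28, and between -0.327 and 0.056 in the other 4. In those 4 the relation rested on 2 arrays.

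Low miR-210 was mostly found on arrays with a low median, called dim here. Of the 23 arrays with a median below 4.5, 13 had miR-210 below 5, against 3 of the 93 other arrays, and all 9 arrays with miR-210 below 4 were among the 23. These counts describe the arrays and were not tested. The male day-28 groups held 9 of the 23 dim arrays and 6 of the 16 arrays with miR-210 below 5, on 18 arrays in all. The array medians there were 3.87, 5.46, 5.17 and 5.06 with pioglitazone 16. They were 5.25, 5.21, 5.56, 4.33 and 3.91 with pioglitazone 63, 5.47, 5.17, 4.22, 3.76 and 3.77 with rosiglitazone 10, and 4.82, 4.07, 4.26 and 4.00 with vehicle. Of the 4 vehicle males 3 were thus below 4.5, against 2 of the 5 males given pioglitazone 63. The upper quartiles of those 3 vehicle arrays were 7.70, 7.86 and 7.65, against 8.16 on the other vehicle array. On arrays with a median of at least 4.5 the lowest upper quartile was 7.83, in a male given rosiglitazone 10 for 3 days. The values of 7.70 and 7.65 lay below it. Fitted with the array median as covariate, the pioglitazone 63 difference at day 28 in males was 1.31 (limma adjusted p = 0.0713), and with every array centred on its own median it was 1.57 (limma adjusted p = 0.0326). The median of all 301 miRNAs in that comparison was 0.37 as deposited and -0.19 after centring. Among arrays of at least 4.5 only 1 vehicle male was left there, the one at 7.04, and the difference from it was -0.16, which is no test of the groups. The part of array brightness in the result was not tested.

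Not every dim array had low miR-210. The 6 dim arrays of pioglitazone 63 had 4.12, 5.75, 7.10, 7.62, 7.93 and 7.97, whereas the 6 dim vehicle arrays had 3.27, 3.29, 3.36, 4.55, 5.23 and 5.98. Those of rosiglitazone 10 had 3.32, 3.47, 3.56, 4.65, 4.94, 6.13 and 6.72, and those of pioglitazone 16 had 3.45, 3.60, 3.72 and 5.33. The 4 highest of the 23 were all of pioglitazone 63, a pattern seen after the values were known and given with no test. The dim arrays were not alike. In the order above, the upper quartiles were 5.85, 7.86, 8.18, 7.72, 8.25 and 7.36 for pioglitazone 63. For vehicle they were 5.48, 7.65, 7.70, 7.86, 5.72 and 8.07. By treatment, 4 of 27 arrays of pioglitazone 16, 2 of 30 of pioglitazone 63, 5 of 30 of rosiglitazone 10 and 5 of 29 of vehicle had miR-210 below 5.

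**Figure D3:**
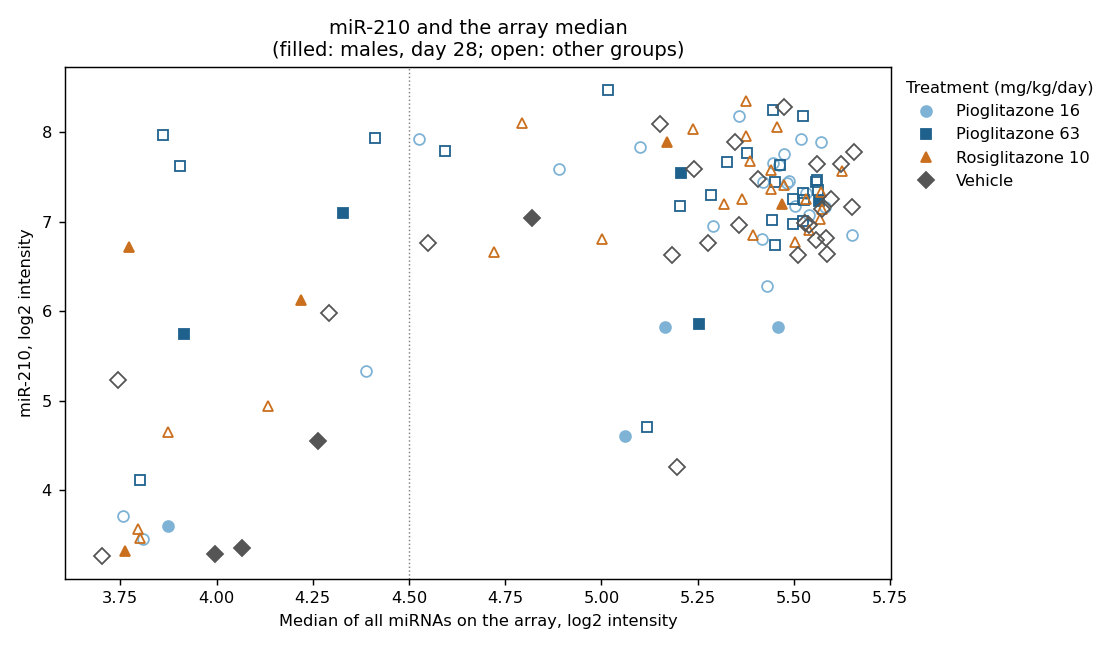
miR-210 (log2 intensity, vertical axis) against the median of all 301 miRNAs on the same array (log2 intensity, horizontal axis), 1 point per rat, with males at day 28 filled and the dotted line at 4.5. Most points form a cloud above 6 on the right, and 13 of the 23 points left of the line lie below 5.

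Markers of other cells also moved with the male day-28 result. In males given pioglitazone 63, against vehicle males, both measured red blood cell miRNAs were called higher, miR-451 by 3.62 and miR-144 by 1.85, and so was the endothelial miR-126, by 3.90. Of the other lists, 2 of 4 leukocyte, 1 of 6 muscle, 4 of 5 fibroblast and 2 of 10 epithelial miRNAs were called higher, and 0 lower in each list, beside 21.6% of all miRNAs called higher. The mean red blood cell level ran from 6.31 to 9.95 with pioglitazone 63, against 3.54 to 6.22 with vehicle, without overlap. The endothelial means ran from 6.19 to 8.14, against 3.84 to 6.59 with vehicle. The leukocyte means were 5.17 to 6.67, against 4.49985 to 5.40, and the fibroblast means 5.68 to 8.76, against 5.03 to 6.35. The muscle means ran from 4.46 to 9.72, against 3.51 to 8.16, so both groups were wide. After centring, 1 of 2 red blood cell, 1 of 2 endothelial, 0 of 4 leukocyte, 1 of 6 muscle and 3 of 5 fibroblast miRNAs were called higher, and with the array median as covariate 0, 1, 2, 1 and 1 in that order. The epithelial means were 10.30 to 11.65 with pioglitazone 63 and 9.71 to 11.39 with vehicle, and the 10 members had a median difference of 0.27 as deposited and -0.30 after centring. The 2 epithelial miRNAs called higher were miR-96 (4.43) and miR-183 (3.77), and the other 8 ran from -0.93 for miR-141 to 1.14 for miR-200c. The part of these cells in the miR-210 difference was not tested.

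Other miRNAs that have been described as responding to low oxygen in cultured cells were examined beside miR-210. Of 15 measured miRNAs described as raised by low oxygen, pioglitazone 63 in males at day 28 had 5 called higher and 1 lower, with a median difference of 1.89 against 0.37 over all 301, of which 21.6% were called higher and 15.6% lower. The mean levels of the 15 ran from 5.91 to 14.26 over the arrays. Many of the 301 lay near the lower end, where differences are compressed, so these medians are not of miRNAs at like levels. Of the 4 described as lowered by low oxygen, 3 were also called higher and 0 lower, with a median of 2.36. Both lists thus had a positive median in this comparison, and also after centring (1.33 and 1.79), quantile normalization (1.72 and 1.68) and with the covariate (0.80 and 1.51). The members called higher from the first list were miR-103 and its near-copy miR-107, miR-26b, and the miR-15 family members miR-195 and miR-322. miR-103 averaged 10.67 ± 0.34 (SD, n = 5) with pioglitazone 63 and 6.91 ± 2.54 (SD, n = 4) with vehicle, a difference of 3.76 (limma adjusted p = 0.00146). The differences were 3.80 for miR-107, 3.80 for miR-26b, 3.75 for miR-195 and 4.94 for miR-322. Close sequences such as miR-103 and miR-107 may share signal on the array. The member called lower was miR-181b, at 6.11 ± 1.39 (SD, n = 5), against 9.16 ± 1.24 (SD, n = 4) with vehicle, a difference of -3.05 (limma adjusted p = 0.000115). From the second list, miR-17-5p, miR-20a and miR-20b-5p, all of the miR-17 family, were higher by 2.45, 2.27 and 2.73, and miR-199a-5p differed by -0.44.

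The same lists were counted with the other treatments in these males. Pioglitazone 16 had 3 of the 15 called higher, miR-103 by 3.43, miR-107 by 3.75 and miR-322 by 4.08, and miR-181b lower at -2.46, with 0 of the 4 called, beside 4.32% of all miRNAs called higher and 8.31% lower. Rosiglitazone 10 had 0 of the 15 called higher and miR-181b lower at -3.41, and of the 4 only miR-20b-5p was called higher, by 2.24, beside 7.31% of all miRNAs called higher and 17.3% lower. miR-181b was thus called lower with all 3 treatments, which share their vehicle males. Its means with pioglitazone 16, pioglitazone 63 and rosiglitazone 10 were 6.70, 6.11 and 5.75, around its mean level over the arrays of 6.59. The vehicle males at day 28 averaged 9.16, farther from that level than any of these treated groups. Whether the treatments lowered miR-181b or these vehicle males were high was not tested. In the other 15 comparisons 0 members of either list were called by limma, beside 0 to 3.65% of all miRNAs, so few calls could occur there. In vehicle males at day 28, against days 3 and 90, 6 of the 15 were lower and 1 higher with a median of -2.03, and 3 of the 4 were lower and 0 higher with a median of -2.15. Over all miRNAs in that comparison 35.9% were called lower, with a median of -0.66.

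**Figure D4:**
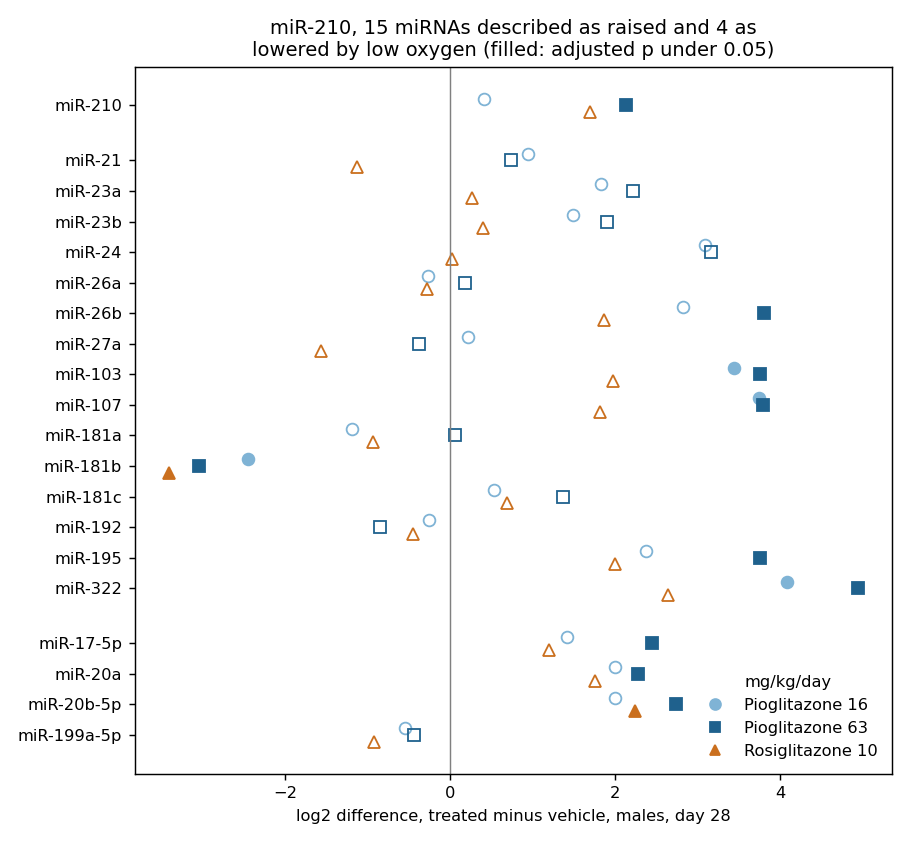
Log2 difference, treated minus vehicle, in males at day 28 (horizontal axis) for miR-210, the 15 miRNAs described as raised and the 4 described as lowered by low oxygen, with filled symbols for an adjusted p under 0.05. Doses are in mg/kg/day. Values of pioglitazone 63 lie right of 0 for most members of both groups, and miR-181b lies left of 0 with all 3 treatments.

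The miRNAs whose pattern was most like that of miR-210 were found by Pearson correlation, as a description. Over the 24 group means the 5 closest were miR-324-5p, with r = 0.925, miR-301a with 0.903, miR-186 with 0.900, miR-361 with 0.897 and miR-99b with 0.882, against a median of 0.322 over the 300 other miRNAs. The same 5 came first after each array was centred on its median, with r of 0.830 to 0.876. Without the 4 male day-28 groups, r stayed at 0.900 for miR-324-5p and was 0.723 to 0.777 for the other 4. The points share arrays, scrapings and array brightness. The closest miRNA is printed here to show that it has another seed, again in capitals.
rno-miR-324-5p: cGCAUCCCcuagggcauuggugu

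It lies at chr10:55233378-55233400 on the plus strand of GRCr8, on another chromosome than miR-210. Over the deviations of the 116 arrays from their group means the closest were miR-221 with r = 0.826, miR-352 with 0.780, miR-181c with 0.777, miR-324-5p with 0.773 and miR-378* with 0.731, against a median of 0.312. After centring these were 0.637, 0.528, 0.545, 0.608 and 0.420. miR-324-5p was thus the 1 miRNA named by both measures. miR-181c is also among the 15 miRNAs described as raised by low oxygen, and at day 28 in males it was not called with any treatment.

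**Figure D5:**
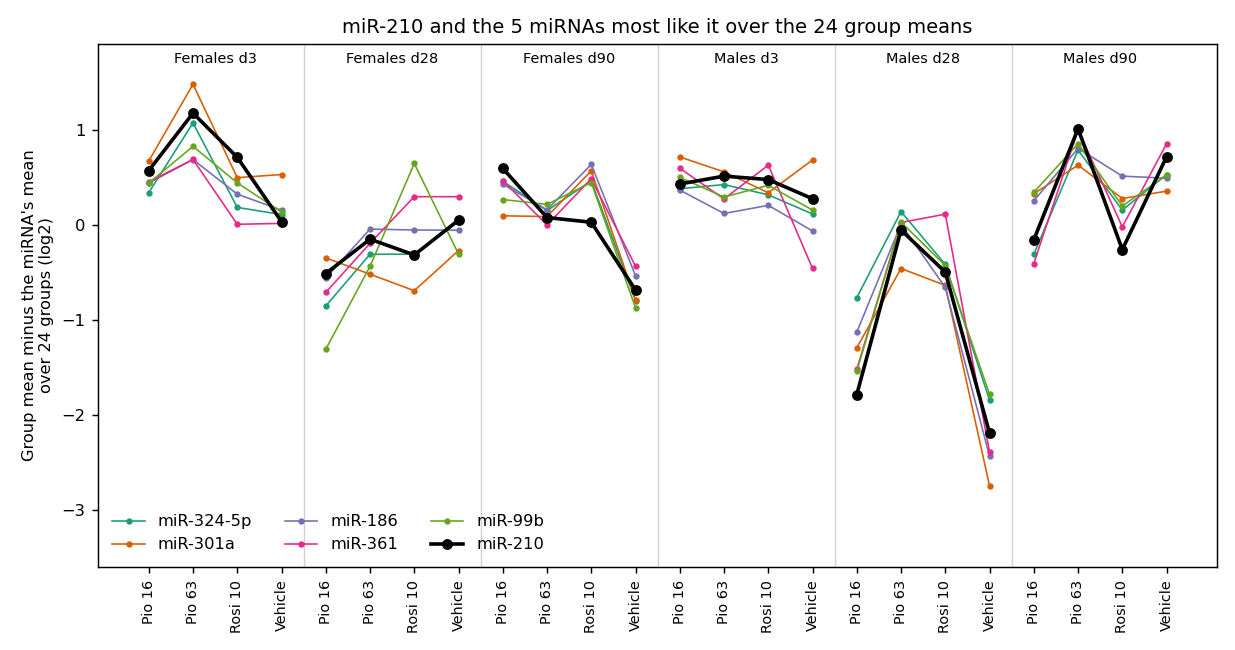
Group mean minus the miRNA's own mean over the 24 groups (log2, vertical axis) for miR-210 (thick black line) and the 5 miRNAs most like it, with the groups along the horizontal axis by sex and day. The lines share their lowest point in vehicle males at day 28.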

How the data were processed

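Total RNA from scraped urothelium was labelled with Cy3 and put on Agilent miRNA arrays of 1 colour, per the labels' protocols. The authors deposited 1 table of log2 intensities for 301 miRNAs on 119 arrays. RMA and limma are named in the submitters' processing notes with no version. How background was corrected, probes summarised and miRNAs filtered is not given in the sources used here, and no detection calls were used. Array names were kept.

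miR-210 and the miRNA lists were chosen with earlier results of these data known. The 3 arrays labelled as failing quality control were left out. limma 3.58.1 in R 4.3.3 was fitted to all miRNAs with 1 mean for each of 24 groups (92 residual and 2.33 prior degrees of freedom), tested on simulated data first. Tests were two-sided, with Benjamini-Hochberg adjustment over the 301 miRNAs within each of 61 contrasts and a threshold of 0.05. The moderated SD of miR-210 was 1.21, against a median of 0.85. Exact permutation tests and correlations used Python 3.11.15 with scipy 1.17.1. The number of arrays limits the precision. The highest correlation between 2 arrays was 0.995, and 0 pairs were identical.

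The named miRNAs were miR-210, the 5 most correlated with it over group means, the 5 most correlated over deviations from group means, and the list members called in males at day 28. Alternatives changed 1 choice at a time: failed arrays kept, median centring, quantile normalization, the array median as covariate, brighter miRNAs only, only the groups of a contrast, replicate number as a block, each replicate left out, and exact permutation. Sequences were read from RefSeq tables for GRCr8.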

Additional observations from a re-analysis of the deposited data

Results flagged for a closer look

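In 7 of the 23 groups of 4 or 5 arrays, 1 rat's miR-210 level stood far from the others by Dixon's test at the 95% level, a limit that chance passes in a small share of groups. Each was the lowest of its group. In males they were replicate 5 of pioglitazone 16 at day 90 with 3.45 (nearest other 7.18, array median 3.81), replicate 3 of rosiglitazone 10 at day 90 with 3.47 (nearest 6.80, array median 3.80), and replicate 1 of vehicle at day 3 with 4.26 (nearest 7.15, array median 5.20). In females they were replicate 2 of pioglitazone 63 at day 28 with 4.12 (nearest 7.01, array median 3.80) and replicate 5 of pioglitazone 63 at day 90 with 4.71 (nearest 7.02, array median 5.12). The other two were replicate 3 of rosiglitazone 10 at day 90 with 3.56 (nearest 7.14, array median 3.80) and replicate 2 of vehicle at day 90 with 3.27 (nearest 6.63, array median 3.70). Of the 7 arrays, 5 had a median below 4.5. Their part in the low values was not tested.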

How the results depend on the processing

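The rise of miR-210 with pioglitazone 63 in males at day 28 (2.14) kept its call with failed arrays kept (2.41), centring (1.57), quantile normalization (1.76) and brighter miRNAs only. It lost it by limma with the array median as covariate (1.31, adjusted p = 0.0713), with only the groups of the contrast (2.14, 0.0729), with the replicate block (1.84, 0.0817), and, in an alternative chosen after seeing the data, against vehicle males of days 3 and 90 (-0.55, 0.928). Keeping only arrays with a median of at least 4.5 was also chosen after seeing the data. It leaves 1 vehicle male at day 28, the one at 7.04, so its values for contrasts with that group (-0.16 here) rest on that rat and test nothing. The exact permutation test gave 2.14 with an adjusted p of 0.190. Leaving out replicates gave 1.60 to 3.17 (adjusted p 0.00281 to 0.224). The causes were not tested. For rosiglitazone 10 in the same males, a call appeared with failed arrays kept (1.97, adjusted p = 0.0445) and with the covariate (1.41, 0.0498), the sign turned against vehicle males of days 3 and 90 (-0.99), and leaving out replicates gave 1.15 to 2.52, called without vehicle replicate 1 (0.0148) or rosiglitazone replicate 4 (0.0162). Pioglitazone 16 in those males was -0.20 centred, -0.47 with the covariate, -0.057 with the block, -1.62 at a median of at least 4.5 and -2.28 (adjusted p = 0.0118) against days 3 and 90, and -0.28 to 1.69 with replicates left out. Signs also turned for uncalled female values: pioglitazone 16 at day 3 (-0.027 quantile, -0.054 covariate) and day 28 (0.49 at a median of at least 4.5), pioglitazone 63 at day 28 (0.0092 quantile, 0.22 at that median), and rosiglitazone 10 at day 3 (-0.012 covariate) and day 28 (0.17 quantile, 0.069 covariate, 0.52 at that median). With replicates left out, uncalled differences ran from -1.58 to 0.79 (pioglitazone 16, females, day 28), -0.54 to 0.62 (pioglitazone 16, males, day 3), -0.51 to 0.53 and -0.060 to 1.43 (pioglitazone 63, females, days 28 and 90), -0.55 to 0.55 (pioglitazone 63, males, day 3), -0.88 to 0.17 and -0.10 to 1.66 (rosiglitazone 10, females, days 28 and 90) and -0.50 to 0.66 (rosiglitazone 10, males, day 3). The mean of 6 ran from -0.098 to 0.40 for pioglitazone 16 and from 0.61 to 0.87 for pioglitazone 63, which passed without vehicle male 1 of day 28 (adjusted p = 0.0394) and with the covariate (0.69, 0.0305). The male minus female effect of pioglitazone 63 at day 28 was -0.38 at a median of at least 4.5 and 1.39 to 3.48 with replicates left out, called without vehicle male 1 (0.0216), and the day-28 effect of rosiglitazone 10 in males was 1.17 to 3.10. The day-28 difference in vehicle males was -1.06 with the covariate (limma adjusted p = 0.113) and -0.21 with that 1 rat. The day-28 difference with pioglitazone 16 in males lost its call with brighter miRNAs only (-1.92, 0.0652) and with the groups of the contrast alone (-1.92, 0.0812). It was -2.31 to -1.47 when replicates were left out. Vehicle males minus females at day 28 was -1.31 centred (0.0674), -0.885 with the covariate (0.245), 0.035 with that 1 rat and -3.07 to -1.82 with replicates left out. Pioglitazone 63 minus 16 in males at day 28 was called with the covariate (1.78, 0.0217), so that 1 of 6 was called there in place of 0. The day-28 contrasts called numbered 1 in place of 2 with the covariate, brighter miRNAs or only the groups of the contrast, and 1 to 2 with replicates left out. The vehicle sex contrasts called numbered 0 in place of 1 with centring or the covariate, and 0 to 1 with replicates left out, and the effect contrasts by sex and by day were called in 0 to 2 cases. Of all 301 miRNAs, 112 were called for pioglitazone 63 in males at day 28, against 72 with brighter miRNAs only, 15 at a median of at least 4.5, and 55 to 136 with replicates left out. Deviations of same-numbered arrays in different groups had a median r of 0.045 over 168 pairs, 74 of them over 0.1. For other-numbered arrays it was -0.053 over 673 pairs, 266 of them over 0.1. No clear pairing of the rats by replicate number was thus seen, and the block was fitted only as an alternative. With the block, calls over all miRNAs were 88 in place of 112 for pioglitazone 63 and 13 in place of 38 for pioglitazone 16 in males at day 28. The number of arrays and the floor of the intensities limit what these data can show.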

Other observations

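The 3 arrays that the labels mark as failing quality control had miR-210 levels of 3.80 and 3.19 (females given pioglitazone 16 for 28 days, replicates 1 and 5) and 3.16 (vehicle males at day 28, replicate 2). Their array medians ran from 3.93 to 4.80. They entered the comparisons only where failed arrays were kept.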
